A study of Mus musculus with 6 samples.

Results

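The calcium/calmodulin-dependent protein kinases, or CaM kinases, were described here in the hippocampus, in a study that concerns overexpression of HuD (Elavl4), an RNA-binding protein of neurons, in mice. The genes were chosen by name, as all probe sets annotated to Camk2a, Camk2b, Camk2d, Camk2g or Camk4. Of these 5 genes 4 were found, with 5 probe sets among the 10833 that carry a single gene symbol (8251 genes in all). Camk2a had 2 probe sets and Camk2b, Camk2d and Camk4 had 1 each, while Camk2g was not analysed here. Each of the 6 samples is total RNA of mouse hippocampus on its own array. The labels do not tell HuD overexpressors from any controls, and age, sex, strain, the transgene's promoter and the number of animals per sample are likewise unstated. The only label difference besides the number is an unexplained title code, le2 for sample 2 and le1 for the others. The samples are therefore numbered 1 to 6 as in their titles, no genotype was assigned, and no difference between samples has a replicate check.

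CaM kinase II is a holoenzyme of many subunits, made in forebrain neurons mostly of the alpha subunit (Camk2a) and the beta subunit (Camk2b). Calcium-bound calmodulin opens the subunits, which then phosphorylate one another and stay active after calcium has fallen, a step long studied in hippocampal plasticity. The Camk2a mRNA is carried into dendrites and translated there, whereas CaM kinase IV, encoded by Camk4, acts largely in the nucleus on transcription factors such as CREB. Camk2a mRNA has been reported among those that HuD binds.

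Values are the deposited signal intensities. For differences between samples, signals were divided by the median of their array and put on a log2 scale, so that a log2 level of 0 is the array median. The range of a probe set is the log2 difference between its highest and its lowest sample. Array medians lay between 59.9 and 63.3 in signal, and the mean between the 2nd and 98th percentiles was 150.0 on every array. Detection calls were not used here, so a signal under the array median is not shown to be above background. The number of arrays limits the precision.

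Camk2a, the alpha subunit, differed most between samples. Its brighter probe set had signals of 411.9, 844.6, 274.8, 865.1, 1016 and 579.1 in samples 1 to 6. Samples 2, 4 and 5 were high, samples 1 and 3 low, and sample 6 lay between them. The range was 1.81 on the log2 scale, a 3.51-fold difference between samples 5 and 3, and 2.45-fold without sample 3.

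The dimmer Camk2a probe set had signals of 323.0, 608.3, 192.7, 657.7, 752.5 and 456.8 in the same order of samples. Its range was 1.89 on the log2 scale, or 3.71-fold, and 2.32-fold without sample 3. In deposited signals both probe sets put the samples in the same order, with sample 3 lowest and sample 5 highest. After scaling, samples 2 and 4 stood at log2 levels of 3.78 and 3.77 on the brighter probe set and 3.31 and 3.38 on the dimmer one, so these neighbours changed places and were not ordered. The other neighbours in the order kept it on both.

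**Figure D1:**
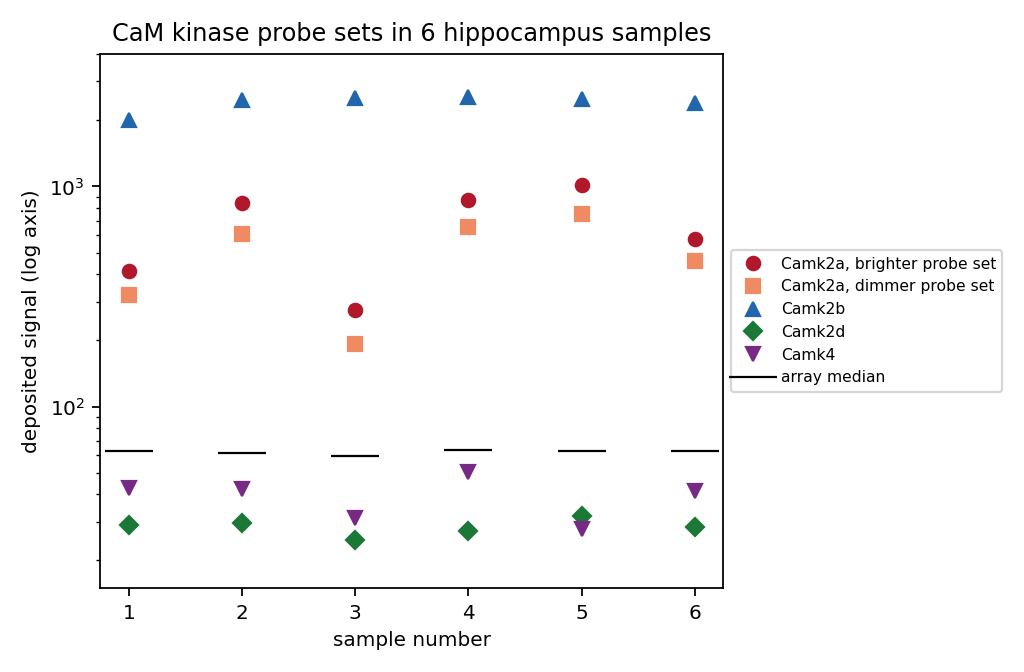
Deposited signal (log axis) of each CaM kinase probe set in samples 1 to 6; 1 point is 1 array and the short bars are the array medians. Camk2a runs from 274.8 to 1016 on the brighter probe set, Camk2b stays between 2002 and 2561, and Camk2d and Camk4 lie under the array median throughout.

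The 2 Camk2a probe sets, annotated to different sequence entries, followed each other closely. Pearson's r over the 6 samples was 0.996 (exact two-sided permutation p = 0.0028) and Spearman's rho was 0.943 (exact permutation p = 0.017). Without the 2 samples farthest from the median r was 0.993. The deviations of the 2 probe sets from their own medians differed by -0.06 to 0.11 on the log2 scale, against ranges of 1.81 and 1.89. The labels and files do not say whether they share probes, and both were read from the same arrays, so their agreement does not repeat the RNA preparation.

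Over all genes with several probe sets such agreement was uncommon, but few of these genes varied as widely as Camk2a. Among 705 genes with at least 2 probe sets above the array median, the median r between the brightest 2 was 0.17, with quartiles of -0.25 and 0.54, and Camk2a had the highest value of these genes. In only 4 of them did both probe sets have a range over 1. These were Camk2a, Mef2c (r of 0.990), Ptgds (r of 0.949) and Rbfox2 (r of -0.233). The median r of these 4 was 0.969, so at such a spread a high r was not unusual. These values are a description across genes, which are not independent replicates.

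Camk2b, the beta subunit, which binds actin filaments, had a much smaller range than Camk2a. Its signals were 2002, 2461, 2523, 2561, 2484 and 2386 in samples 1 to 6. Sample 1 was low and the other 5 lay close together, and the range was 0.40 on the log2 scale (1.32-fold), or 0.15 (1.11-fold) without sample 1. The highest sample was 3 after scaling and 4 in deposited signals. In sample 3, where Camk2a was lowest, at 1.29 on the log2 scale under its own median, Camk2b stood 0.08 above its own.

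The 2 subunit genes were not shown to vary together. Pearson's r between Camk2b and the brighter Camk2a probe set was 0.21 (exact two-sided permutation p = 0.76) and Spearman's rho was -0.09 (exact permutation p = 0.92), for the 1 pair of member genes above the array median. Without the 2 samples farthest from the Camk2a median, samples 3 and 1, r was 0.74, and without sample 1 alone it was -0.51, so neither the size nor the sign of the relation is settled by 6 arrays.

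Camk2d, the delta subunit, best known as the main form in heart, was dim. Its signals lay between 24.7 in sample 3 and 31.9 in sample 5, under the array median on every array, and its range was 0.30 on the log2 scale. Of the 5191 probe sets whose median lay at or under the array median, 33.2% had a smaller range. Nothing can be said from this probe set about how Camk2d differs between samples.

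Camk4 was also under the array median on every array. Its signals were 42.7, 42.2, 31.2, 50.4, 27.8 and 41.3 in samples 1 to 6, with a range of 0.85 (1.80-fold). Sample 4 was highest and sample 5 lowest, unlike Camk2a, which was highest in sample 5. Among the same dim probe sets 67.7% had a smaller range than Camk4, so its spread is of a size common at this signal. Counted at the array median, Camk2d and Camk4 had no range.

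Set against all probe sets, the Camk2a spread was wide for its level. Of 5642 probe sets above the array median, 275 had a range over 1, that is, more than 2-fold between the highest and the lowest sample (4.87%). Of the 3 CaM kinase probe sets above the array median 2 had such a range, both of Camk2a, so they count as 1 gene. The median range was 0.41 and the 95th percentile 0.99, which puts Camk2b (0.40) near the middle of all levels together. Among the 126 probe sets within 0.5 on the log2 scale of the Camk2b level, however, the median range was 0.26, and 75.4% had a smaller range than Camk2b. Among the 562 probe sets within 0.5 on the log2 scale of the level of the brighter Camk2a probe set, the median range was 0.32 and 1 had a larger range, the dimmer Camk2a probe set itself. Among the 798 around the dimmer one, 0 had a larger range.

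**Figure D2:**
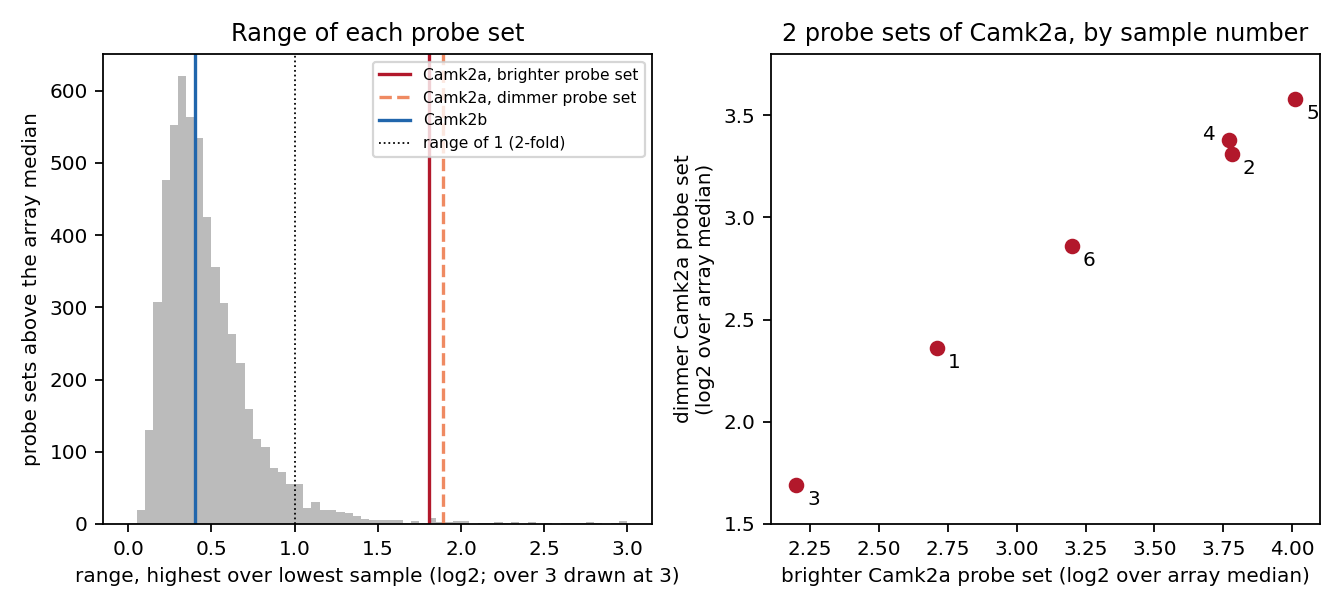
Left, the range (log2, highest over lowest sample) of the 5642 probe sets above the array median, with Camk2b at 0.40 and the 2 Camk2a probe sets at 1.81 and 1.89. Right, the log2 levels of the 2 Camk2a probe sets in each numbered sample, which rise together (r of 0.996) from sample 3 to sample 5.

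Some array controls moved with Camk2a and others did not. The controls read the 5' end, middle and 3' end of a few transcripts. For an mRNA, a high 3' to 5' ratio is commonly taken as a sign of shorter or degraded RNA or incomplete labelling. The pyruvate carboxylase ratio was 2.35, 1.57, 3.56, 1.97, 1.62 and 2.61 in samples 1 to 6. It was highest in sample 3 and lowest in samples 2 and 5, the reverse of the Camk2a order except that samples 1 and 6, and samples 2 and 5, changed places (r of -0.92, rho of -0.89; exact two-sided permutation p = 0.0125 and 0.033). The 18S rRNA ratio was 10.3, 4.02, 7.71, 2.42, 1.59 and 4.98 in the same samples, highest in samples 1 and 3 (r of -0.88, rho of -0.89; exact permutation p = 0.028 and 0.033). Its 5' signals in samples 1 and 3, 60.2 and 28.2, were under those arrays' medians of 62.8 and 59.9. The highest 18S rRNA ratios thus rest on signals not shown to be above background. As 18S is ribosomal RNA and not mRNA, the reading above is not applied to it.

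After Benjamini-Hochberg adjustment over the 5 ratios 0 passed 0.05 (2 did before adjustment), with adjusted permutation p-values of 0.0625 for pyruvate carboxylase and 0.069 for 18S rRNA on Pearson's r, and 0.083 for both on rho. Without the 2 samples farthest from the Camk2a median, r was -0.92 and -0.83. The beta-actin and Gapdh ratios had r of -0.68 and -0.66 (adjusted permutation p = 0.21 for both; rho of -0.77 for both, adjusted permutation p = 0.13). For the transferrin receptor ratio r was -0.34 (adjusted permutation p = 0.53; rho of -0.03, adjusted permutation p = 1). That r was 0.45 without the 2 farthest samples and 0.80 without sample 3 alone, so its sign rests on sample 3. The transferrin receptor 5' signals, 30.4 to 43.0, lay under the array median on every array.

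The signals of the controls were also set beside Camk2a, a choice made after seeing the values. Of 16 control probe sets, 6 had an adjusted exact permutation p under 0.05 for Pearson's r, all 6 positive. They were the 18S rRNA 5' and middle probe sets, all 3 of beta-actin and the pyruvate carboxylase 5' one. The 18S rRNA 5' signal was 60.2, 284.3, 28.2, 153.3, 331.1 and 99.0 in samples 1 to 6. This is the order of the brighter Camk2a probe set after scaling (r of 0.97, adjusted permutation p = 0.022; rho of 1, adjusted permutation p = 0.044; r of 0.88 without the 2 farthest samples). The rho of 1 needs sample 2 above sample 4, which stood at log2 levels of 3.78 and 3.77 on that probe set. On the dimmer one sample 4 was above sample 2, so the full match in order rests on a near tie. In samples 1 and 3 this 5' signal was under the array median, as was the 18S rRNA middle signal in sample 3 (27.1). The low end of the order thus rests on signals not shown to be above background.

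The beta-actin 5' signal was 6415, 9021, 5531, 8699, 8410 and 7451 (r of 0.96, adjusted permutation p = 0.026; rho of 0.83, adjusted permutation p = 0.16; r of 0.74 without the 2 farthest samples). On rho, 18S rRNA 5' was the only one of the 16 under 0.05. For Gapdh 5' r was 0.006 (exact permutation p = 0.99), and 0.54 without the 2 farthest samples. Sample 3, with the lowest Camk2a, thus had the lowest 18S rRNA and beta-actin signals, and sample 1, with the next lowest Camk2a, had the next lowest beta-actin signals. The part of these array measures in the Camk2a differences was not tested.

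**Figure D3:**
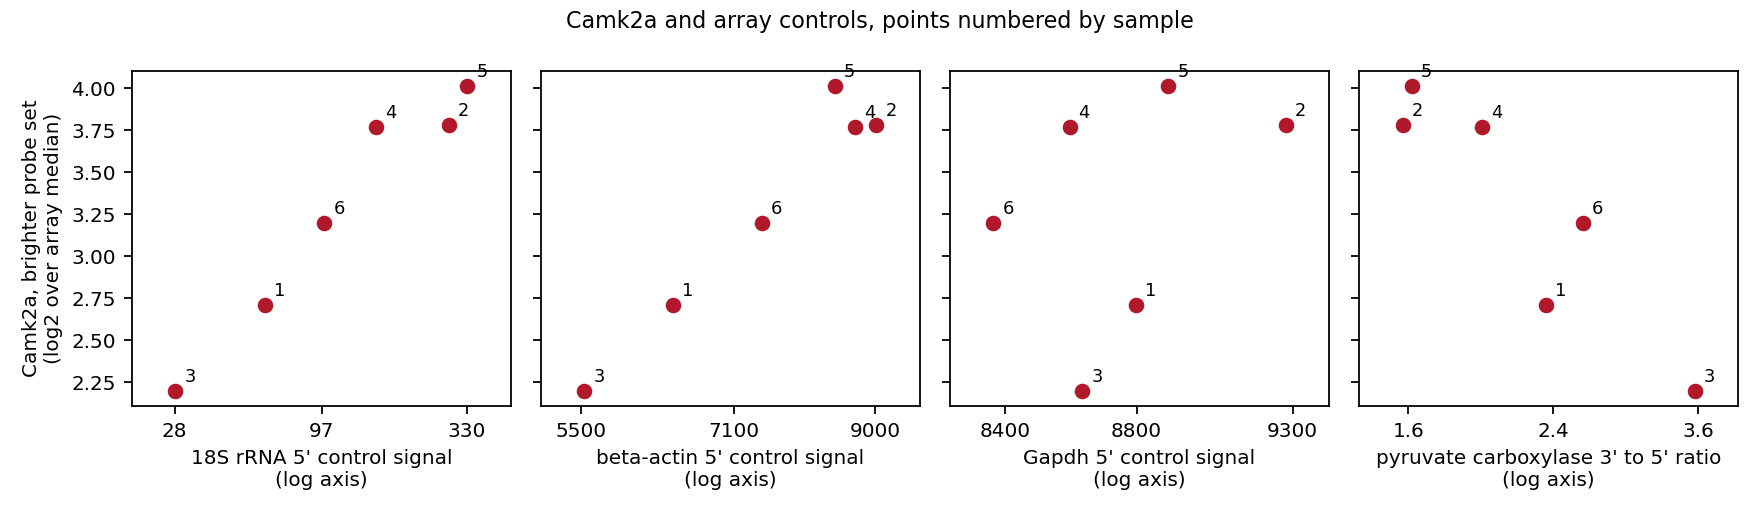
Log2 level of the brighter Camk2a probe set against 4 array measures (log axes), 1 point a sample with its number. Camk2a is higher where the 18S rRNA 5' and beta-actin 5' signals are higher (r of 0.97 and 0.96) and lower where the pyruvate carboxylase 3' to 5' ratio is higher (r of -0.92); for the Gapdh 5' signal r was 0.006. The 18S rRNA 5' signals of samples 1 and 3 lie under the array median.

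No marker list of hippocampal or other cells showed the whole Camk2a pattern. For each list, the score of a sample is the median, over the markers above the array median, of each gene's log2 deviation from its median over the samples. Pyramidal and granule neuron markers (6 of 9 listed) had scores of -0.22, 0.05, 0.02, 0.02, 0.15 and -0.05 in samples 1 to 6, and Prox1, a granule cell factor, was under the array median. Apart from sample 3, these scores put the samples in the order of the brighter Camk2a probe set after scaling, within a much smaller spread. That match leaves out the sample with the largest Camk2a deviation and includes samples 2 and 4, which were not ordered. Singly, the 6 markers had r with Camk2a from -0.15 (Neurod6) to 0.58 (Wfs1). Pan-neuronal markers (7 of 8 listed) had scores between -0.10 in sample 4 and 0.08 in sample 2, with summed signals from 13372 to 15086. In sample 3, with a Camk2a deviation of -1.29, these 2 lists scored 0.02 and 0.05. In sample 1, with -0.77 for Camk2a, they scored -0.22 and 0.01.

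Astrocyte scores (7 of 8) ran from -0.09 to 0.14, microglia scores (6 of 7) from -0.12 to 0.07 and interneuron scores (10 of 11) from -0.19 to 0.13. Such medians cover unlike members. Single astrocyte markers had r with Camk2a from -0.84 (Aldoc) to 0.93 (Slc1a2), and microglia markers from -0.75 (Tyrobp) to 0.88 (Cx3cr1). Slc1a2 was under the array median in samples 1 and 3 (61.3 and 57.0). Oligodendrocyte scores (7 of 8) were lowest in samples 1 (-0.28) and 2 (-0.20), and thalamus and habenula scores (3 of 6) likewise (-0.34 and -0.15). Choroid plexus markers (2 of 5, Ttr and Folr1) had scores from -2.92 in sample 1 to 1.72 in sample 6, and meningeal markers (6 of 6) from -0.20 in sample 5 to 0.32 in sample 2. Endothelial markers (2 of 5) scored from -0.30 in sample 3 to 0.31 in sample 1, and of the striatal markers 1 of 5, Penk, was above the array median (-0.26 to 0.09). In such bulk tissue, fewer cells of a type and less RNA per cell cannot be told apart.

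The genes whose pattern was most like that of Camk2a were ranked by Pearson's r with its brighter probe set over the 6 samples, among 1635 other genes above the array median with a range of at least 0.5. The first was Slc12a5, the neuronal potassium-chloride cotransporter KCC2 (r of 0.988). Its signals were 83.1, 141.2, 46.9, 140.7, 176.6 and 106.3 in samples 1 to 6. It was high in samples 2, 4 and 5 and low in 1 and 3, and its range was 1.84 (log2). With the value of sample 3, under the array median, counted at that median, its range was 2.80-fold in place of 3.58-fold.

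The next was Dab1, the adaptor of reelin signalling (r of 0.982), with signals from 136.4 in sample 3 to 217.6 in sample 5. Rap2b, a small GTPase of the Ras family (r of 0.982), lay between 138.7 (sample 3) and 277.8 (sample 5), and Sema3e, a secreted semaphorin (r of 0.971), from 150.3 to 283.2 in the same samples. Camk2a thus had a wider range (1.81) than Dab1 (0.60), Rap2b (0.93) and Sema3e (0.84).

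The other 6 were Parg, which removes poly(ADP-ribose), Cbl, a ubiquitin ligase of receptor tyrosine kinases, and Plxna1, a semaphorin receptor, with Tbp, the TATA-binding protein, Maf, a leucine zipper transcription factor, and Adcyap1r1, the receptor of the neuropeptide PACAP. Their r lay between 0.941 for Adcyap1r1 and 0.959 for Parg, and their ranges between 0.50 for Maf and 1.05 for Cbl. Cbl was under the array median in samples 1 and 3 (61.5 and 46.2), and Tbp in sample 3 (58.2). Counted at that median, the range of Cbl was 1.60-fold in place of 2.07-fold. All 10 were lowest in sample 3, and all but Maf were highest in sample 5. As the genes were chosen for their r with Camk2a over these samples, this follows largely from the choice. Of the 10, 4 genes were still among the 50 most alike without sample 3.

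The 5 least alike were Mzt2, a small protein of the gamma-tubulin complex (r of -0.993), Pqbp1, a splicing-related protein (-0.975), the MHC class I gene H2-Q4 (-0.972), the mitochondrial ribosomal protein gene Mrpl44 (-0.950) and Gtf3c5, a subunit of a polymerase III factor (-0.945). Mzt2 had signals of 248.0, 177.8, 267.3, 194.2, 181.1 and 213.4 in samples 1 to 6. Gtf3c5 was under the array median in samples 4 and 5 (60.2 and 55.3). Counted at that median, its range was 1.36-fold in place of 1.55-fold. The H2-Q4 probe set has a name that marks probes shared within a family. In all, 27 of the 1635 genes had r of at least 0.9 and 19 had r of at most -0.9. With 6 arrays read together, all these correlations share the arrays' quality and scaling, and they are given as a description.

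**Figure D4:**
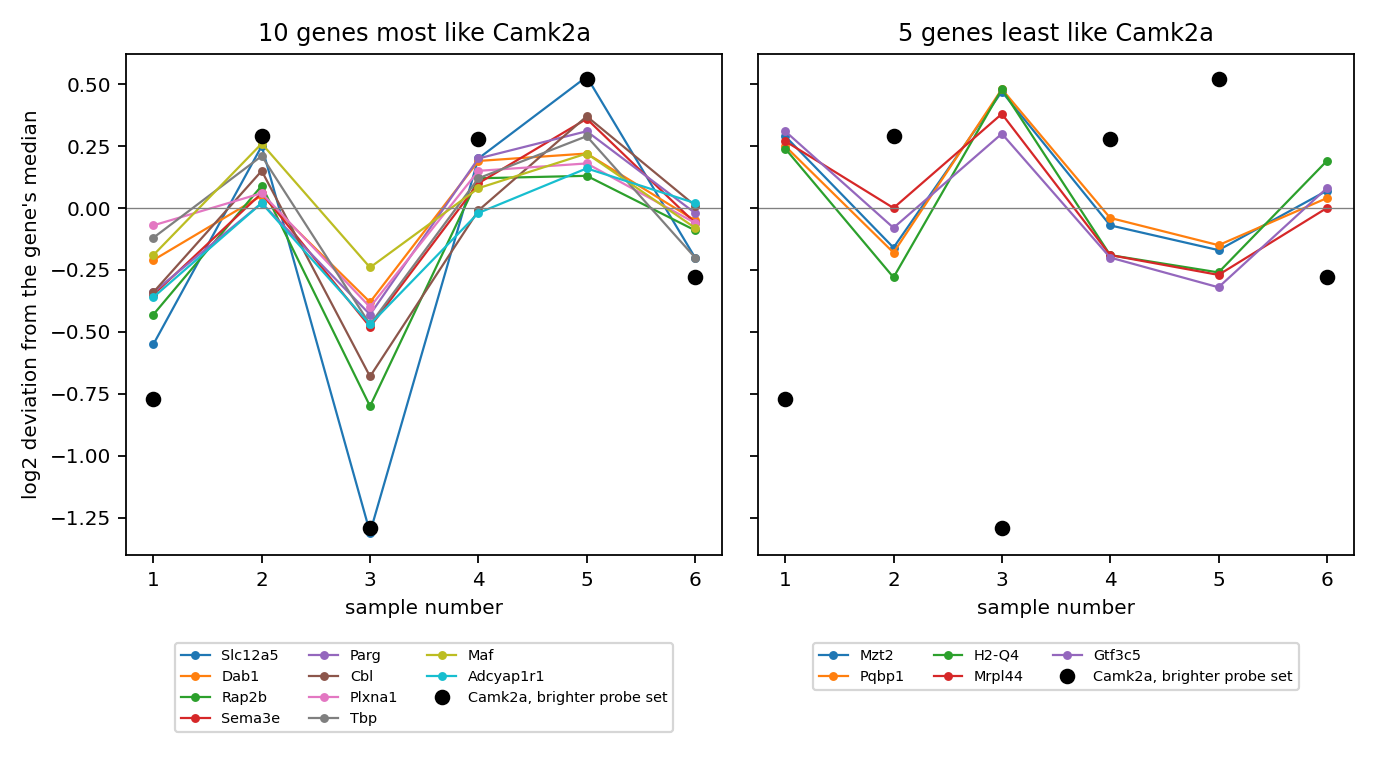
Deviation of each gene from its own median (log2) in samples 1 to 6, for the 10 genes most like Camk2a (left) and the 5 least like it (right), with Camk2a as black points; lines join the values of 1 gene. Camk2a falls to -1.29 in sample 3, where the genes on the left are all at their lowest and 4 of the 5 on the right are at their highest. The genes were chosen by their r with Camk2a over these same samples, so this follows largely from the choice.

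Among partners and substrates of the kinases, 34 of 56 listed genes were measured, and 29 of them had a probe set above the array median. Of their 37 probe sets above the median, 7 had a range over 1 (18.9%, beside 4.87% of all such probe sets), and these belong to 4 genes, with 4 of the 7 from Mef2c. Without sample 1 the count was 0. The median range of the 29 genes, each by its brightest probe set, was 0.38. That of all probe sets above the array median, dimmer ones of a gene included, was 0.41, so the values are not like for like. Of the 29, 12 were lowest in sample 3, the sample in which 11.1% of all 4838 genes above the array median were lowest. Camkk1 and Camkk2, the kinases upstream of CaM kinase IV, and the inhibitors Camk2n1 and Camk2n2 were not analysed here.

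Calmodulin, its buffer neurogranin and calcineurin had ranges under 1. Calm2, 1 of the calmodulin genes, had signals from 88.2 in sample 3 to 123.7 in sample 4, with a range of 0.41, and Nrgn, which encodes neurogranin, from 1011 in sample 1 to 1480 in sample 2 (0.58). The calcineurin genes, which encode the calmodulin-dependent phosphatase acting against the kinases, had ranges of 0.25 (Ppp3ca), 0.24 (Ppp3cb) and 0.23 (Ppp3r1). Within these small ranges their r with Camk2a was 0.92, 0.70 and -0.77 in that order, beside 0.84 for Calm2 and 0.35 for Nrgn. Over the 29 partner genes r ran from -0.98 (Rac1, with a range of 0.21) to 0.93 (Gria1). Pnck, a CaM kinase of the type I family, had signals of 362.7, 302.0, 333.1, 312.8, 284.2 and 297.8 in samples 1 to 6, and was lowest in sample 5, where Camk2a was highest.

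Of the synaptic partners, Dlg4, the scaffold PSD-95, had signals of 560.8, 481.1, 255.1, 473.8, 431.2 and 367.3 in samples 1 to 6. It was lowest in sample 3, as was Camk2a, but highest in sample 1, where Camk2a was low (range 1.07). The NMDA receptor subunits that bind the kinase were lowest in sample 3, Grin2a with a range of 0.92 (64.9 to 129.7 in signal) and Grin2b with a range of 0.57 (78.4 to 121.9). Nos1, the neuronal nitric oxide synthase and a kinase substrate, was also lowest there (69.8, range 0.68).

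Gria1, the AMPA receptor subunit phosphorylated by the kinase, was low in samples 3 and 1, like Camk2a, on 1 of its 2 probe sets. The brighter one had signals of 1245, 1542, 893.3, 1793, 1688 and 1613 in samples 1 to 6, with a range of 0.93 and an r of 0.93 with Camk2a. Unlike Camk2a, it was highest in sample 4, and its sample 2 lay under sample 6. The other had a range of 0.37 and an r of 0.18, and the 2 did not follow each other (r of 0.04). Likewise 1 of 3 Actn1 probe sets, for the actin cross-linker alpha-actinin 1, had a range of 1.25, while the brightest had 0.37 (r of -0.02 between them). The wider one was just under the array median in sample 1 (62.2 against 62.8). The brightest has a name that marks probes shared within a family. The 2 dimmer Gria2 probe sets ran against the brightest (r of -0.52 and -0.23), all with ranges of 0.25 or less. The brightest Gria2 probe set and the next also have names that mark shared probes.

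Among cytoskeletal and nuclear substrates and regulators, Map2, the dendritic microtubule protein, had its lowest signal in sample 1 (150.4) and its highest in 5 (304.1), a range of 1.01. Mef2c, a transcription factor downstream of calcium signalling, had signals of 491.8, 261.2, 213.6, 286.3, 243.8 and 291.2. It was high in sample 1 alone on all 4 of its probe sets, with ranges of 1.02 to 1.30, and did not follow Camk2a (r of -0.20). Stmn1, the microtubule-destabilising stathmin, had signals from 1552 in sample 4 to 2433 in sample 1 (0.66), and Tiam1, an activator of the GTPase Rac1, from 173.9 in sample 5 to 267.0 in sample 1 (0.63). The 8 partner genes with the widest ranges thus include those lowest in sample 3 and those that set sample 1 apart.

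**Figure D5:**
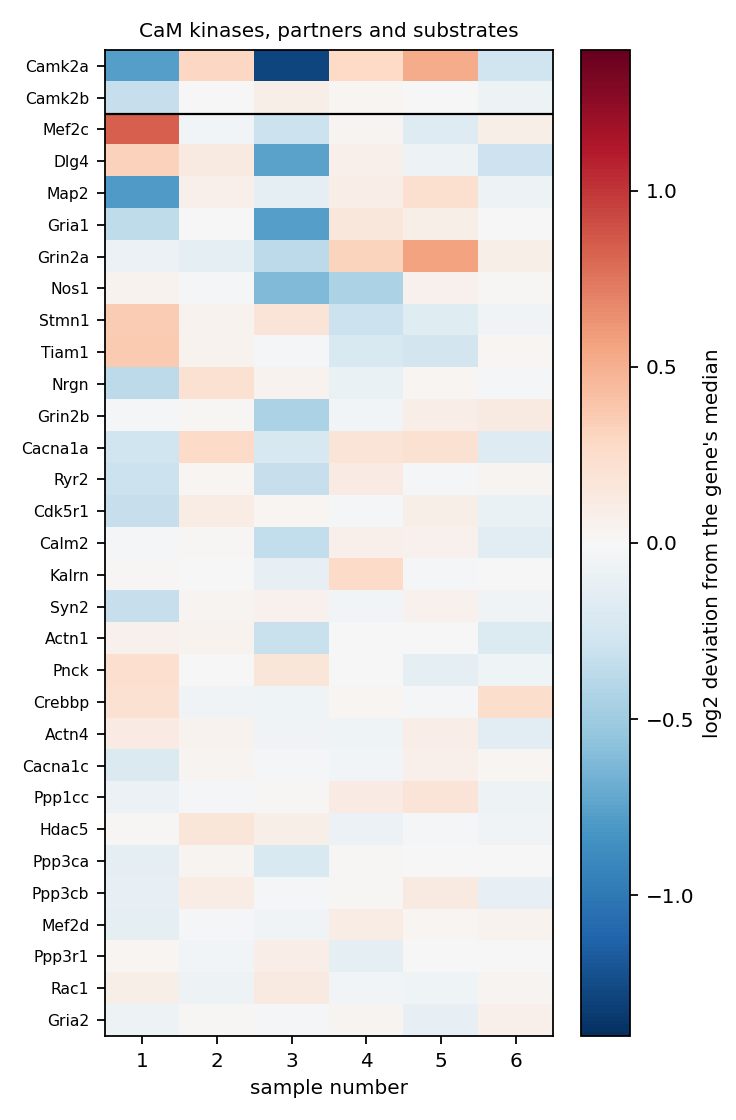
Deviation of each gene from its own median (log2, as colour) in samples 1 to 6 for Camk2a, Camk2b and the 29 partner and substrate genes above the array median, each by its brightest probe set, ordered by range. Dlg4 and Gria1 are low in sample 3 like Camk2a, Mef2c is high in sample 1, and genes toward the bottom vary little.

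Other mRNAs known to lie in dendrites were set beside Camk2a. Of 12 such genes besides Camk2a, 8 were measured, all above the array median, and 2 of the 8 were lowest in sample 3 (Dlg4 and Gria1), beside 11.1% of all genes above the array median. Of their 11 probe sets above the array median, 3 had a range over 1 (27.3%, beside 4.87% of all such probe sets), those of Pcp2, Dlg4 and Map2. Dlg4, Map2, Gria1, Gria2 and Nrgn are also in the partner list, so these counts overlap with those given for partners. Without sample 1, neither Dlg4 nor Map2 had a range over 1. Bdnf, the activity-regulated neurotrophin, had signals from 534.7 in sample 1 to 808.1 in sample 4 (range 0.58), and Eef1a1, the translation elongation factor, from 6881 to 7268 (0.14). Pcp2, best known from Purkinje cells, had 72.3 and 73.3 in samples 3 and 5 and 198.5 to 237.8 in the other 4 samples. Its probe set has a name that marks less specific probes. Samples 3 and 5 were thus low together for Pcp2 but at opposite ends for Camk2a.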

How the data were processed

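RNA of 6 hippocampus samples was measured on 6 arrays of 12488 probe sets, 66 of them controls. The deposited table holds linear signal intensity values, 1 for each probe set and sample; the labels give no scanner, summary method or scaling, and the authors' common trimmed mean is read from the values. The platform annotation gave the gene names, and the 396 with several symbols were not named. Signals were divided by the array's median without controls, raised to 0.2 where lower, and log2-transformed (Python 3.11.15, pandas 2.3.3). A probe set counted as above the array median when its median over the samples was above 0. Each gene was represented by its brightest probe set. Correlations were tested by exact two-sided permutation of the 720 pairings, whose smallest p is 0.0014, with Benjamini-Hochberg adjustment within each family. Genes were named by rule: all members, the 10 most and 5 least like Camk2a, and the 8 partners with the widest range, besides probe sets going against another of their gene; further partner, dendritic and marker genes were named after their values were seen. Members, lists and tests were chosen with earlier results of these data known. Alternatives were no scaling, quantile normalization, other floors, no filter, the mean of probe sets and leaving out each sample. Because no sample has a group, no comparison between groups was made.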

Additional observations from a re-analysis of the deposited data

How the results depend on the processing

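Under no scaling, quantile normalization, no floor and a floor at the array median, the Camk2a ranges lay between 1.81 and 1.89 (brighter probe set) and between 1.89 and 1.98 (dimmer), and with 1 sample left out between 1.29 and 1.81 and between 1.21 and 1.89, both lowest without sample 3. The r of the 2 Camk2a probe sets stayed between 0.995 and 0.998 with 1 sample left out. The number of partner probe sets with a range over 1 was 7, with 11 when no filter on low values was set and 0 to 7 with 1 sample left out, 0 being without sample 1. With 1 sample left out, the r of Camk2a and Camk2b lay between -0.507 and 0.905, the negative end without sample 1, and the r with the transferrin receptor ratio between -0.753 and 0.797, the positive end without sample 3; the causes were not tested. The r with the other 4 control ratios kept its sign in all alternatives run, and none passed an adjusted p of 0.05. Of the 10 genes most like Camk2a, 4 were among the first 50 without sample 3 and 9 or 10 under the other alternatives, a check added after seeing the data. No paired analysis was possible because no sample has a group. Signals under the array median limit what Camk2d and Camk4 can show.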
